A study of Mus musculus with 11 samples.

Results

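Adipoq, Cidec, Plin1, Plin4, Cfd, Fabp4, Pparg, Lpl and Cebpa, a set of 9 genes known from fat cells and lipid droplets, were followed through RNA sequencing of mouse mitral leaflets. The leaflets are the flaps that close the mitral valve on the left side of the heart. The genes were chosen by name and matched in the gene column of each table. All 9 were listed, among 24062 genes in the Ift88 table and 26667 genes in the Dzip1 table.

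The Ift88 experiment held 3 knockout libraries, labelled NfatC1Cre(+) with Ift88f/f, and 2 wild-type libraries, labelled NfatC1Cre(+) with Ift88+/+. Every Ift88 library therefore carried the NfatC1Cre allele, which is active in cells that have used the Nfatc1 gene, such as the endothelium of developing valves, so that other cells of the leaflet keep their Ift88. The titles of 3 of these libraries, knockout replicates 1 and 2 and wild-type replicate 1, hold the prefix IR28N, and all 5 are marked as re-analyzed. By Xist and Y-linked counts, knockout replicate 3 was male and the other Ift88 libraries were female. Sex was thus not balanced between these genotypes, and its part in the values was not tested. The Dzip1 experiment held 3 libraries labelled Dzip1S14R/+, heterozygous for the S14R allele, and 3 labelled Dzip1+/+. By the same counts, S14R/+ replicate 2 and wild-type replicate 3 were female and the other Dzip1 libraries were male. Ift88 encodes a protein of the transport that builds cilia, and Dzip1 encodes a protein found where a cilium is anchored. The age of the mice, and whether a library came from a single animal, were not given in the sources used here, so a p-value here speaks of library-to-library spread, which may be technical.

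A fat cell stores triglyceride in a lipid droplet, whose surface is coated by perilipins and whose growth is driven by proteins of the CIDE family. Pparg and Cebpa are the transcription factors that switch on this programme, and Adipoq and Cfd encode proteins that fat cells secrete. Lpl and Fabp4 serve the handling of fatty acids in many tissues: lipoprotein lipase frees fatty acids from circulating lipoproteins and is made in quantity by heart muscle cells, and Fabp4 carries fatty acids inside fat cells, macrophages and capillary endothelium.

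The start regions of these genes differed in base composition, and 4 of them are shown because they span that range. Their relation to the counts was not tested. RefSeq promoters on GRCm38.p6, from 250 bases before to 50 bases after a start site, were found for 7 of the 9 members, as 10 start regions. The first Pparg sequence, chr6:115360894-115361193 on the forward strand, is the most CG-rich of them, with 44 CG dinucleotides and 80.3% G and C. The second, chr6:115421816-115422115, lies at a start further into the same gene and holds 2 CG dinucleotides and 40.3% G and C. A middle Pparg start region between them, chr6:115362099-115362398, is not shown and holds 13 CG dinucleotides and 62.7% G and C. Plin1 is at chr7:79732727-79733026 on the reverse strand with 2 CG dinucleotides, and Adipoq is at chr16:23146286-23146585 on the forward strand with 0. Capitals mark the core of the C/EBP motif, searched as TTNNGCAA on both strands.
Pparg upstream start: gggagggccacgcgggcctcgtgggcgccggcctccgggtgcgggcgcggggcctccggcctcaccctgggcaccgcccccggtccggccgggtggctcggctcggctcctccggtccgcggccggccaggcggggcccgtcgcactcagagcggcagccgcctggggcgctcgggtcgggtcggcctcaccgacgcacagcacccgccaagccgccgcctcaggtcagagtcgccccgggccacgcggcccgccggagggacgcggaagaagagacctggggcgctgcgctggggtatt
Pparg downstream start: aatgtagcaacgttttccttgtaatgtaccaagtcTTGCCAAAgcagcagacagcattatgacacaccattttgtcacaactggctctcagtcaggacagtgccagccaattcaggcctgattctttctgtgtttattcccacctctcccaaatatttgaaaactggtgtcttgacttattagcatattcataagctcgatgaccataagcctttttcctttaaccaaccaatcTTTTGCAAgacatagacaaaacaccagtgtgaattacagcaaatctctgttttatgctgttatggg
Plin1: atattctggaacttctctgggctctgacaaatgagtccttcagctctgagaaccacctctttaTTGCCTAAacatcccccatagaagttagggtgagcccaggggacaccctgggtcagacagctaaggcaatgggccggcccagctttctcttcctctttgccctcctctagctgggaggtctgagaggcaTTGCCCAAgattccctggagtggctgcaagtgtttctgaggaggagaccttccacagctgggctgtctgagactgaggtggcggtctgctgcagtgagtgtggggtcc
Adipoq: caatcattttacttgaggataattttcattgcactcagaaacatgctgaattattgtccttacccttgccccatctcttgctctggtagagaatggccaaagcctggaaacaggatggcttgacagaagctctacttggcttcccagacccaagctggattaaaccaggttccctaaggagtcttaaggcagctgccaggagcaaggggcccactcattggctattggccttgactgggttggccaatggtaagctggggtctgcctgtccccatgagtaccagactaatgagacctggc

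The C/EBP core stood in the downstream Pparg start, at offsets of -215 and -16 bases from the start site, and in Plin1, at -187 and -58. It was also found once in 1 of the Cidec starts, and 10.8% of all 32851 promoters of this length hold it. No match was found in the start regions of Adipoq, Cfd, Plin4 or Cebpa, nor in the upstream or the middle Pparg start. Cebpa, with 29 CG dinucleotides, was like the upstream Pparg start in composition, while the starts of Adipoq, Cfd, Plin1, Plin4 and Cidec held between 0 and 7. The counts are per gene and do not tell the Pparg starts apart.

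The total of counts per library, in M (10 to the power 6), was 31.4, 40.3 and 23.4 in the Ift88 knockout and 31.4 and 53.8 in its wild type. It was 86.0, 90.5 and 93.5 in S14R/+ and 78.6, 79.1 and 75.1 in the Dzip1 wild type. Ift88 itself stood at 3.03, 4.12 and 0.428 CPM (counts scaled to a library total of 1 M) in the knockout libraries and at 6.31 and 21.2 CPM in the wild-type libraries, so the groups did not overlap. The allele in S14R/+ is a point change, and the Dzip1 count does not check it. The Ift88 libraries were far more variable, with a biological coefficient of variation of 87.7%, against 7.85% in the Dzip1 experiment. The 10 cardiomyocyte markers summed to 34206, 27880 and 35786 CPM in the knockout, and to 56467 and 106 CPM in the wild type, where replicate 2 stood apart. Every interval or floor printed for a count reflects counting error alone.

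The transcripts that mark a fat cell were absent or close to absent. In the Ift88 experiment Adipoq, which encodes adiponectin, Cidec, which encodes the CIDE protein that enlarges fat cell droplets, and Cfd, which encodes the protease adipsin, had 0 counts in all 5 libraries. The limit that a count of 0 allows, 3 counts, is 0.0957, 0.0745 and 0.128 CPM in the knockout libraries and 0.0955 and 0.0558 CPM in the wild-type libraries. Plin1, which encodes the coat protein of the fat cell droplet, had 7 counts in knockout replicate 3, or 0.300 CPM with a 95% exact binomial interval of 0.120 to 0.617, and 0 in the other knockout libraries and in both wild-type libraries. The markers that define fat cells thus do not bear out the label of the set, and the 9 genes are described here by name.

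The deeper Dzip1 libraries gave the same picture. Adipoq had 9, 0 and 1 counts in S14R/+ and 0, 0 and 5 counts in the wild type, at most 0.105 CPM. Plin1 had 2, 1 and 1 counts in S14R/+ and 0, 1 and 0 in the wild type. Cidec was found as 1 count in wild-type replicate 3, and Cfd as 1 count in S14R/+ replicate 1. These 4 genes were below the count filter of the main edgeR test in both experiments. Where DESeq2 gave a value, for all 4 in the Dzip1 experiment (adjusted p = 0.997 each) and for Plin1 in the Ift88 experiment (adjusted p = 0.788), none was called.

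**Figure D1:**
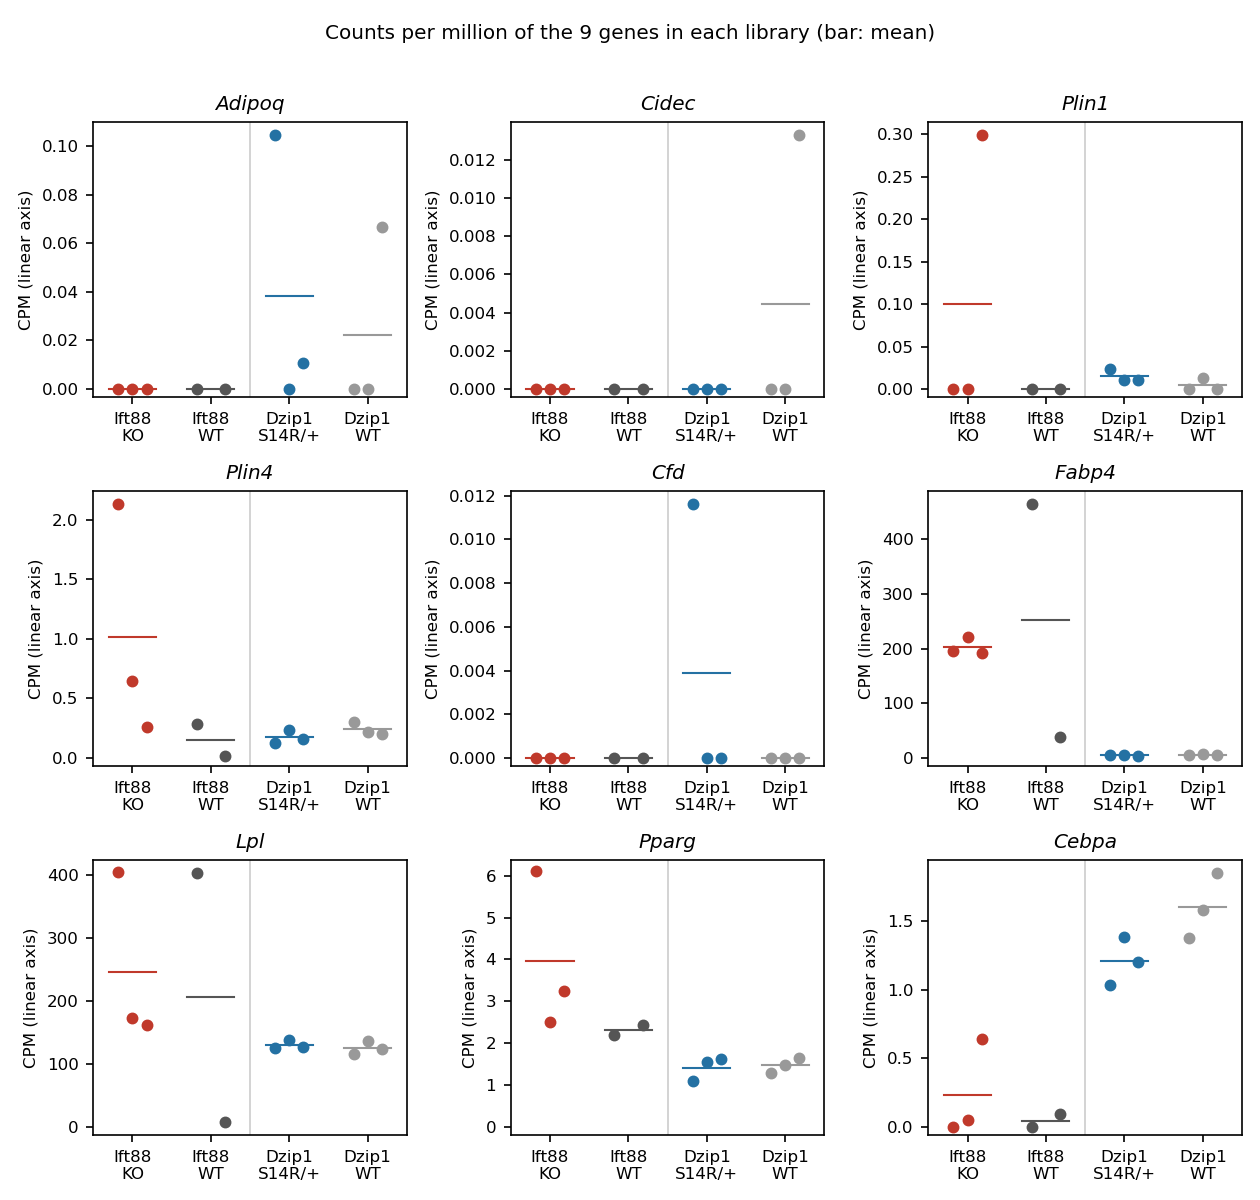
Each panel shows 1 gene, with a point per library and a bar at the group mean, in CPM on a linear axis with its own range. Lpl and Fabp4 reach 404 and 465 CPM in the Ift88 libraries, with the 2 wild-type libraries far apart, while Adipoq, Cidec, Plin1 and Cfd stay at or under 0.300 CPM in every library.

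Plin4, a coat protein of small droplets in fat and muscle, was detected in all libraries but at few counts. It had 67, 26 and 6 counts in the knockout, or 2.14, 0.646 and 0.257 CPM, and 9 and 1 counts in the wild type, or 0.287 and 0.0186 CPM. Knockout replicate 3 lay between the wild-type libraries, so the groups overlapped. With an adjusted p = 0.908 in edgeR's quasi-likelihood test, its log2 fold change of 2.47 ± 2.26 (SE) was not called. In the Dzip1 libraries it had 11, 21 and 15 counts in S14R/+ and 24, 17 and 15 counts in the wild type, with a log2 fold change of -0.45 ± 0.391 (SE) (adjusted p = 0.880 in edgeR). Exons of Plin4 share 17 bases with Hdgfl2 on the other strand, 0.294% of its length.

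The perilipin transcripts in these leaflets were Plin2 and Plin3, which coat droplets in most cell types, rather than Plin1 and Plin4. Per kb of transcript, the scale used here for shares within a family, Plin2 gave 60.0%, 56.9% and 55.2% of the family's signal in the knockout libraries and 51.2% and 62.2% in the wild-type libraries. Plin1 and Plin4 gave at most 0.297% each in any Ift88 library. Plin5, the perilipin of muscle that burns fat, gave 11.0% in wild-type replicate 1 and at most 0.450% in the other Ift88 libraries. In S14R/+ Plin2 gave between 52.3% and 53.9%, and in the Dzip1 wild type between 51.9% and 54.1%.

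Among the CIDE genes Cidea and Cideb were counted in every library and Cidec was not, apart from its 1 count. Cidea, best known from brown fat, had 505, 505 and 668 counts in the knockout and 751 and 52 counts in the wild type. It lay lowest in wild-type replicate 2, at 0.967 CPM, while the knockout libraries ran from 12.5 to 28.6 CPM and wild-type replicate 1 stood at 23.9 CPM. Ucp1, the defining gene of brown fat, had 1 count in the whole Ift88 experiment.

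**Figure D2:**
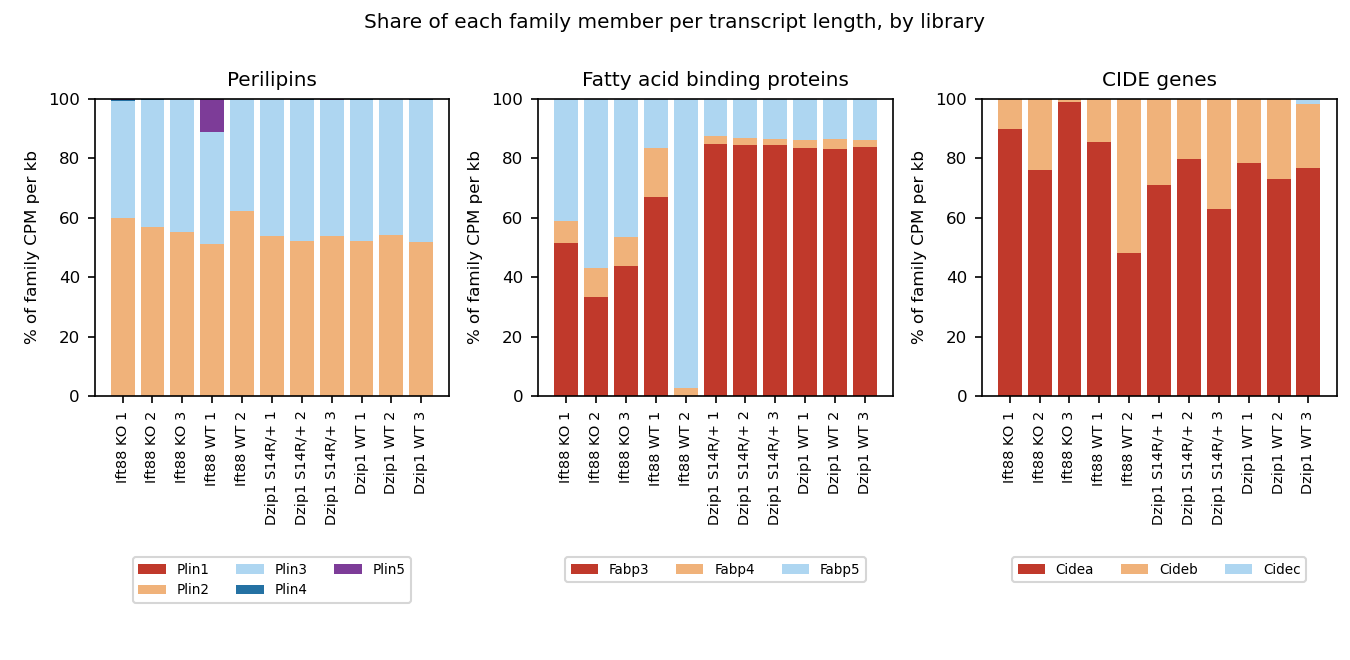
Stacked bars give each family member's share, in percent, of the family's CPM per kb of transcript in each of the 11 libraries. Plin2 and Plin3 fill the perilipin bars except for Plin5 in Ift88 wild-type replicate 1, and Fabp3 gives 0.146% of its family in Ift88 wild-type replicate 2.

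Lpl and Fabp4 were the members found in quantity, and they varied more between the Ift88 wild-type libraries than between the genotypes. Lpl stood at 404, 173 and 162 CPM in the knockout libraries and at 404 and 7.96 CPM in the wild-type libraries. Knockout replicate 1 and wild-type replicate 1 were within 1 CPM of each other, and wild-type replicate 2 was 50.7 times lower than wild-type replicate 1. Its log2 fold change was -0.03 ± 1.35 (SE) (adjusted p = 0.999 in edgeR).

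Fabp4 stood at 195, 222 and 191 CPM in the knockout libraries and at 465 and 38.6 CPM in the wild-type libraries. The knockout libraries lay close together, within 1.16 times of each other, and between the wild-type libraries, which differed by 12.1 times. Its log2 fold change was -0.60 ± 0.949 (SE) (adjusted p = 0.956 in edgeR).

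The direction of these fold changes depended on which wild-type library was used. Without wild-type replicate 1, Lpl had a log2 fold change of 4.99 ± 0.855 (SE) (adjusted p = 0.0565 in edgeR) and Fabp4 had 2.41 ± 0.397 (SE) (adjusted p = 0.0513 in edgeR). Without wild-type replicate 2, Lpl had -1.01 ± 0.573 (SE) (adjusted p = 0.452 in edgeR) and Fabp4 had -1.51 ± 0.298 (SE) (adjusted p = 0.141 in edgeR). In these fits the lone wild-type library is assumed to vary like the knockout libraries. Among the IR28N titles, 2 knockout and 1 wild-type library, Lpl had -0.77 ± 0.578 (SE) (adjusted p = 0.510 in edgeR) and Fabp4 had -1.46 ± 0.341 (SE) (adjusted p = 0.164 in edgeR), and the other titles leave 1 library per genotype, with no test.

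**Figure D3:**
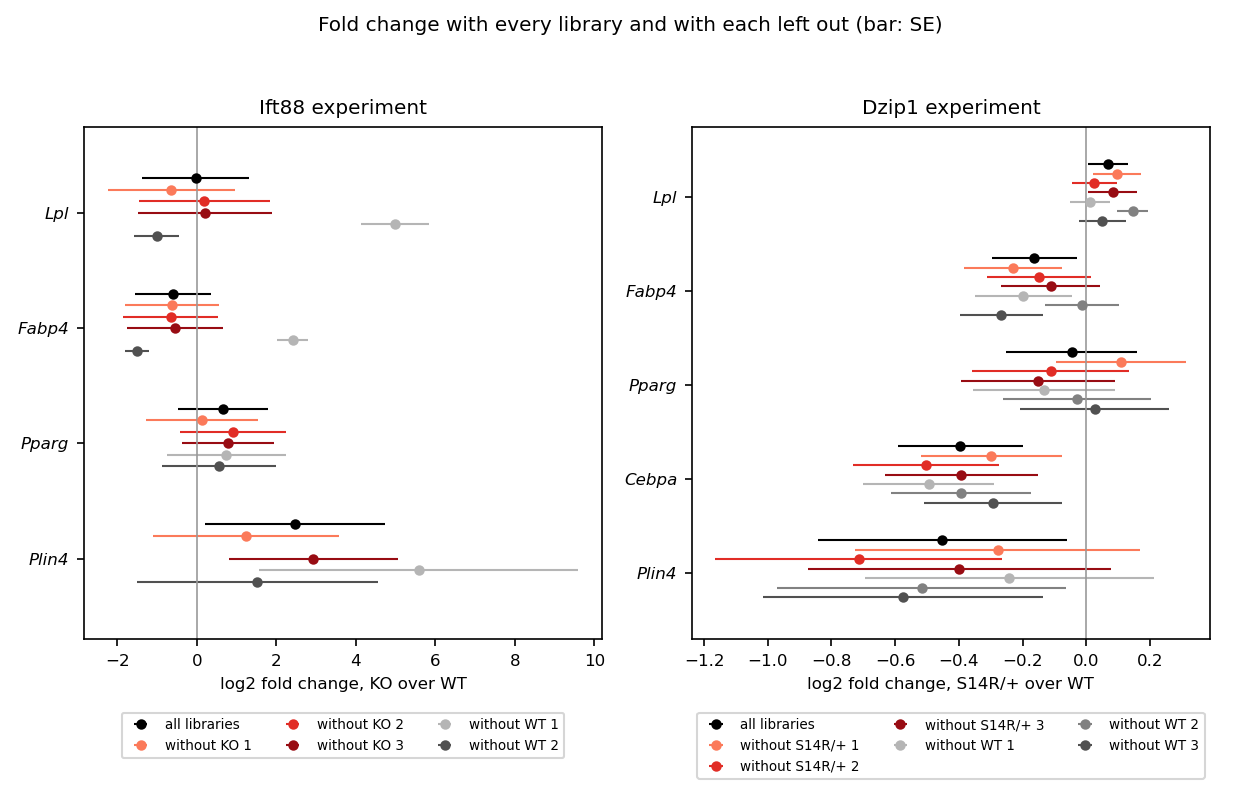
Points are log2 fold changes of the tested members, mutant over wild type, with bars of 1 SE, for all libraries and with each library left out. Without Ift88 wild-type replicate 1 Lpl moves to 4.99 and Fabp4 to 2.41, and the Dzip1 estimates stay between -0.71 and 0.15. Plin4 was not tested without knockout replicate 2.

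The spread of Lpl was wide also beside other genes. Its SD on the log2(CPM + 0.5) scale over the 5 Ift88 libraries was 2.30, above that of 97.5% of the 14244 tested genes, whose median was 0.776. The SD of Fabp4 was 1.31, above 79.5% of tested genes, and that of Pparg was 0.525, above 28.6%.

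Cardiomyocyte markers and several capillary genes fell with Lpl and Fabp4 from wild-type replicate 1 to replicate 2, while the sums of some other marker lists rose. In wild-type replicate 2, all 10 cardiomyocyte markers were detected, but at a summed 106 CPM, and Fabp3, the fatty acid binding protein of heart muscle, stood at 2.14 CPM against 1747 CPM in wild-type replicate 1. Of 8 capillary markers, Meox2, Car4, Timp4 and Tcf15 had 0 counts there, and Gpihbp1, the capillary anchor of lipoprotein lipase, stood at 0.781 CPM against 84.4 CPM in wild-type replicate 1. Car4 also had 0 counts in knockout replicate 2, and Timp4 in knockout replicate 3. The list's sum ranged from 1582 to 1768 CPM in the knockout and was 1618 and 1797 CPM in the wild type, led by Fabp5. Fabp5 itself stood at 521 and 1708 CPM in wild-type replicates 1 and 2. Cd36, a fatty acid transporter of capillaries and muscle, stood at 536, 251 and 548 CPM in the knockout, and at 975 and 86.3 CPM in the wild type. The 9 general endothelial markers ran the other way, at 1838, 2526 and 1871 CPM in the knockout and at 337 and 3003 CPM in wild-type replicates 1 and 2. So did the macrophage markers, which summed to 302, 177 and 343 CPM in the knockout and to 172 and 350 CPM in the wild type. The valve interstitial markers summed to 1689 and 4670 CPM in wild-type replicates 1 and 2. The part of these cell types in the values of Lpl and Fabp4 was not tested, and in whole leaflets fewer cells of a type and less RNA per cell cannot be told apart.

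Set against the cardiomyocyte sum, Lpl stood at 11.8, 6.20 and 4.52 CPM per 1000 CPM of cardiomyocyte markers in the knockout libraries, and at 7.15 and 74.8 in the wild-type libraries. In the second of these Lpl was thus low by less than the muscle markers were. For Fabp4 the ratio was 5.70, 7.95 and 5.34 in the knockout, and 8.24 and 362 in the wild type.

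**Figure D4:**
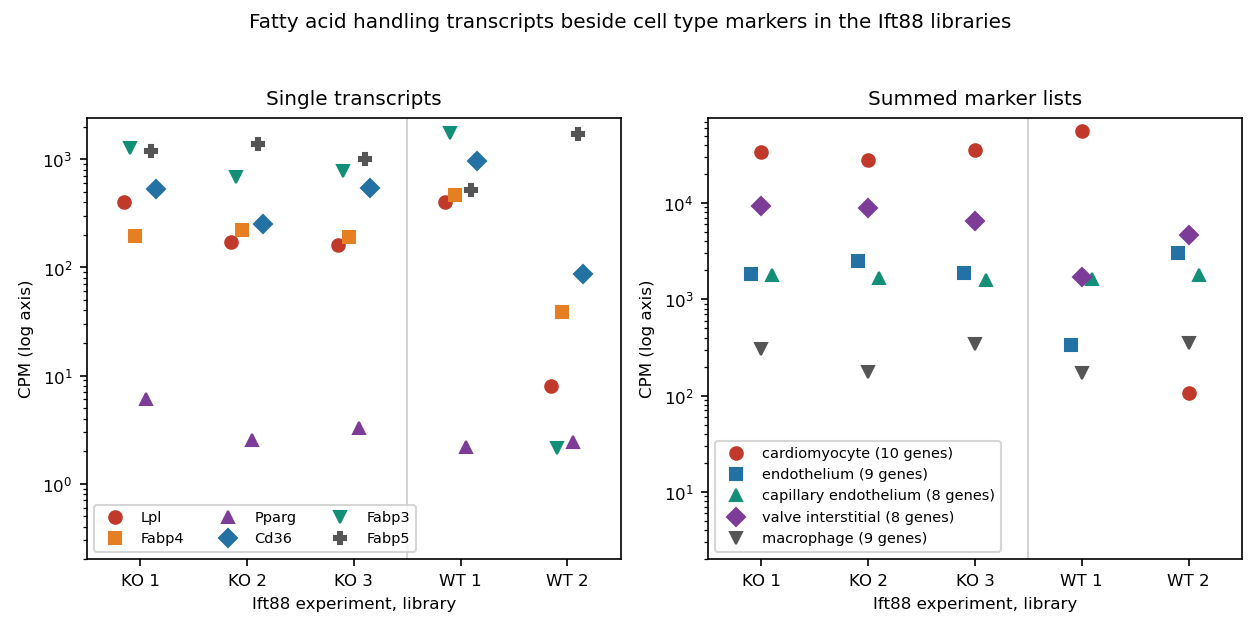
Single transcripts (left) and summed marker lists (right) are plotted for the 3 knockout and 2 wild-type libraries in CPM on a log axis. In wild-type replicate 2 Lpl (7.96 CPM), Fabp4 (38.6 CPM), Fabp3 (2.14 CPM) and the cardiomyocyte sum (106 CPM) are each at their lowest, while Fabp5 and the endothelial sum are at their highest.

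Of Fabp3, Fabp4 and Fabp5, Fabp4 gave the smallest share in every library except Ift88 wild-type replicate 2, where Fabp3 gave 0.146%. Per kb Fabp4 gave 7.31%, 9.90% and 9.76% of the sum of these 3 genes in the knockout, and 16.4% and 2.42% in the wild type. In wild-type replicate 1 Fabp5 was close to Fabp4, at 16.6%. Fabp5 gave 97.4% in wild-type replicate 2. Per kb in the Dzip1 libraries, Fabp4 gave from 2.21% to 2.67% of the sum in S14R/+ and from 2.57% to 3.23% in the wild type, and Fabp3 gave most of the rest. Fabp5 has near-identical processed copies in the genome, so its counts are uncertain.

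Between S14R/+ and wild type Lpl and Fabp4 differed by less than the spread between libraries. Lpl stood at 126, 138 and 128 CPM in S14R/+ and at 115, 137 and 124 CPM in the wild type, and the groups overlapped. Its log2 fold change was 0.07 ± 0.0634 (SE) (adjusted p = 0.888 in edgeR), and 0.15 ± 0.05 (SE) without wild-type replicate 2 (adjusted p = 0.214 in edgeR). Fabp4 stood at 5.33, 4.77 and 4.51 CPM in S14R/+ and at 5.23, 6.49 and 4.75 CPM in the wild type, with a log2 fold change of -0.16 ± 0.134 (SE) (adjusted p = 0.870 in edgeR). The cardiomyocyte sum ran from 29328 to 29549 CPM in S14R/+ and from 26404 to 28982 CPM in the wild type, so in this sum every S14R/+ library lay above every wild-type library. Taken singly, 0 of the 10 markers lay higher in every S14R/+ library, against 4.58% of tested genes. Of the 10 markers 9 had a log2 fold change above 0, with a median of 0.10, and edgeR called 0 of them, with 0 at an unadjusted p under 0.05, and DESeq2 called 0. Their part in the Lpl values was not tested. Lpl per 1000 CPM of it ran from 4.29 to 4.68 in S14R/+ and from 4.13 to 4.71 in the wild type.

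The transcription factors were low. Pparg, the nuclear receptor that drives fat cell formation and is also used by endothelium and macrophages, stood at 6.12, 2.51 and 3.25 CPM in the knockout libraries, from 192, 101 and 76 counts. In the wild-type libraries it stood at 2.20 and 2.44 CPM, from 69 and 131 counts. All 3 knockout libraries lay above both wild-type libraries. Knockout replicate 2, with a counting interval of 2.04 to 3.05 CPM, was not clear of wild-type replicate 2, with 2.04 to 2.89 CPM. Such a separation was seen in 1 of the 4 tested members, and in 15.4% of all tested genes. None of the 4 lay below the wild type in every knockout library, against 7.55% of tested genes. The log2 fold change was 0.65 ± 1.14 (SE) (adjusted p = 0.960 in edgeR), and it ranged from 0.13 to 0.91 with each library left out.

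Cebpa, which works with Pparg in keeping fat cells mature and also acts in macrophages and other cells, had 0, 2 and 15 counts in the knockout and 0 and 5 counts in the wild type. Most counts came from knockout replicate 3, the only library read as male there, and the gene was below the count filter of the main edgeR test in the Ift88 experiment. DESeq2 gave it a log2 fold change of 2.26 ± 4.25 (SE) there (adjusted p = 0.922). Cebpa was counted in every Dzip1 library, at 1.04, 1.38 and 1.20 CPM in S14R/+ and 1.37, 1.58 and 1.85 CPM in the wild type. The highest value of each group there came from the library read as female, S14R/+ replicate 2 and wild-type replicate 3. An effect of sex on Cebpa was not tested in either experiment. S14R/+ replicate 2 lay above wild-type replicate 1, so the groups overlapped by that pair. The log2 fold change of -0.40 ± 0.197 (SE) had the smallest unadjusted p of the members in edgeR, 0.0723, and was not called over all genes (adjusted p = 0.828). It ranged from -0.50 to -0.29 with each library left out. Exons of Cebpa share 51 bases with the antisense gene Gm45091, 1.94% of its length, and without a stated strand setting such reads cannot be told apart.

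Of the 9 macrophage markers 8 had a log2 fold change below 0 in S14R/+, with a median of -0.34, against a median of 0.00 over all tested genes. None passed the threshold in edgeR or DESeq2. An unadjusted p under 0.05 in edgeR was found for 4 of the 9, and for 959 of all 16160 tested genes. Below the wild type in every S14R/+ library lay 3 of the 9, against 5.86% of tested genes. The macrophage markers summed to 102 to 112 CPM in S14R/+ and 114 to 141 CPM in the wild type. Of the 8 valve interstitial markers 7 had a log2 fold change below 0, with a median of -0.18 and 5 at an unadjusted p under 0.05, and their sum was 6197, 6532 and 6024 CPM in S14R/+ and 6412, 7153 and 8195 CPM in the wild type, highest in replicate 3. Of the 7 epicardial and mesothelial markers 6 lay below 0, with a median of -0.16 and 1 at an unadjusted p under 0.05, and their sum was 332 to 359 CPM in S14R/+ and 333 to 420 CPM in the wild type. Of the valve interstitial and of the epicardial and mesothelial markers, 0 lay below the wild type in every S14R/+ library. Neither edgeR nor DESeq2 called a marker of these lists. The part of these cell types in the Cebpa values was not tested. Pparg itself stood at 1.09, 1.55 and 1.62 CPM in S14R/+ and 1.30, 1.49 and 1.65 CPM in the wild type, a log2 fold change of -0.05 ± 0.206 (SE) (adjusted p = 0.980 in edgeR).

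In order of level per kb, Fabp4 led in every Ift88 library, at 218, 247 and 213 CPM per kb in the knockout and 519 and 43.0 in the wild type. Lpl followed at 98.2, 42.0 and 39.3 CPM per kb in the knockout and 98.1 and 1.93 in the wild type. The transcripts of Fabp4 and Lpl differ in length, 896 and 4115 bp, and the part of the length trend in this order was not tested. Across the Dzip1 libraries the order of these 2 genes was the reverse in every library, with Lpl from 30.6 to 33.5 CPM per kb in S14R/+ and from 28.0 to 33.2 in the wild type, and Fabp4 from 5.04 to 5.95 in S14R/+ and from 5.30 to 7.24 in the wild type. Pparg came next there, from 0.619 to 0.914 CPM per kb in S14R/+ and from 0.734 to 0.934 in the wild type. Cebpa ran from 0.394 to 0.526 in S14R/+ and from 0.523 to 0.705 in the wild type, so its range overlapped that of Pparg. Plin4 stayed at or under 0.0530 CPM per kb in the Dzip1 libraries, and the group means of the other 4 genes were at or under 0.0298 CPM per kb. By library, Adipoq lay above Plin4 in S14R/+ replicate 1, at 0.0810 against 0.0222 CPM per kb. It did so also in wild-type replicate 3, at 0.0515 against 0.0347 CPM per kb, and lay below Plin4 in the other Dzip1 libraries. The tables were made separately, so levels were not compared between the experiments.

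Over the whole table edgeR called 0 of 14244 genes in the Ift88 experiment, or 0%, with 856 at an unadjusted p under 0.05, and 0 of the 4 tested members. DESeq2 called 381 of 15800 genes, or 2.41%, and 0 of the 6 members it could test. For the Dzip1 table edgeR called 0 of 16160 genes, or 0%, with 959 at an unadjusted p under 0.05, and 0 of the 5 tested members. DESeq2 called 0 of 21010 genes there, with 987 at an unadjusted p under 0.05. None of the 5 members had groups that did not overlap there, against 10.4% of tested genes, of which 4.58% lay higher and 5.86% lower in every S14R/+ library. The members that passed the filter are those with counts, and their number says nothing of the others.

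The wider pathway was read from 8 lists of genes that act with the members. For Ift88 the median of log2 fold changes was -0.11 over 10 tested genes of droplet coat and growth, -0.17 over 4 of triglyceride breakdown, -0.22 over 10 of fatty acid uptake and binding and -0.43 over 6 of triglyceride synthesis. Over all tested genes it was -0.01. edgeR called 0 genes in each of the 8 lists. Plin5 stood at 1.12, 0 and 0 CPM in the knockout and at 20.2 and 0.186 CPM in the wild type. Gpd1, which makes the glycerol backbone of triglyceride, stood at 2.30, 0.621 and 0.985 CPM in the knockout and 5.99 and 3.31 CPM in the wild type.

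Of the 9 tested genes of fatty acid synthesis 8 had a log2 fold change above 0, with a median of 0.65. Fasn, fatty acid synthase, stood at 56.9, 70.9 and 65.8 CPM in the knockout and 9.36 and 24.8 CPM in the wild type. Acaca, the acetyl-CoA carboxylase that starts the pathway, stood at 10.9, 10.2 and 15.2 CPM in the knockout and 1.12 and 2.60 CPM in the wild type. The groups did not overlap in either gene, a separation seen in 22.9% of tested genes in either direction. edgeR did not call them (adjusted p = 0.801 each), and DESeq2 called both higher (adjusted p = 0.0227 and 0.0084). Their transcripts are long, at 10050 and 9513 bp, and over all tested genes the median log2 fold change was 0.74 among the 2718 longest transcripts and -0.48 among the 2718 shortest, so transcript length moved with the fold change. Of the 8 valve interstitial markers, of the cells that make the leaflet's matrix, 7 also had a log2 fold change above 0, with a median of 1.63. Among them 6 lay above the wild type in every knockout library, as did 15.4% of all tested genes. For these markers edgeR called 0 and DESeq2 3, against 0% and 2.41% of all genes tested. Their transcripts run from 1758 bp (Dcn) to 12427 bp (Vcan), and the part of length in their values was not tested. They summed to 9220, 8817 and 6553 CPM in the knockout and to 1689 and 4670 CPM in the wild type. The part of transcript length and of these cells in the values of Fasn and Acaca was not tested. The length trend was read over the whole experiment and not over the members alone. Length and log2 fold change were 896 bp and -0.60 for Fabp4, and 1767 bp and 0.65 for Pparg. They were 4115 bp and -0.03 for Lpl, and 5756 bp and 2.47 for Plin4. The part of length in the members' fold changes was not tested.

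Among 15 adipogenic regulators 11 of 14 tested genes lay above 0 with a median of 0.87, beside the same higher sums of the valve interstitial markers. The part of those cells and of transcript length here was not tested either. Klf15, a factor of fat and muscle metabolism, was an exception, at 9.95, 11.8 and 7.41 CPM in the knockout and 21.6 and 26.8 CPM in the wild type, with a log2 fold change of -1.43 ± 0.517 (SE) (adjusted p = 0.801 in edgeR). Of the adipokine list, Retn and Orm1 had 0 counts in all Ift88 libraries and Lep, which encodes leptin, had 1 count. Adipor1, an adiponectin receptor, was abundant, at 382, 512 and 662 CPM in the knockout and 755 and 705 CPM in the wild type. Adipoq, which encodes its secreted ligand, was not detected in these libraries. Slc2a4, the insulin-responsive glucose transporter of muscle and fat, stood at 47.5, 22.2 and 54.9 CPM in the knockout and 165 and 0 CPM in the wild type.

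In the Dzip1 experiment the medians of the same 8 lists lay between -0.12 and 0.06, and neither edgeR nor DESeq2 called a gene in them. Fabp3 stood at 156, 157 and 158 CPM in S14R/+ and 142, 153 and 142 CPM in the wild type, a log2 fold change of 0.12 ± 0.042 (SE) (adjusted p = 0.822 in edgeR). Dgat2, which completes triglyceride synthesis, stood at 9.39, 10.8 and 9.65 CPM in S14R/+ and 11.1, 11.0 and 12.5 CPM in the wild type, a log2 fold change of -0.20 ± 0.0778 (SE) (adjusted p = 0.822 in edgeR). Ebf2, a factor of fat cell precursors, stood at 0.314, 0.353 and 0.342 CPM in S14R/+ and 0.420, 0.569 and 2.09 CPM in the wild type, where replicate 3 was high (adjusted p = 0.822 in edgeR). G0s2, an inhibitor of triglyceride breakdown, was listed at 0 in all 6 Dzip1 libraries. Whether the annotation behind that table could count it is not known, so the 0 is not read as a level.

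**Figure D5:**
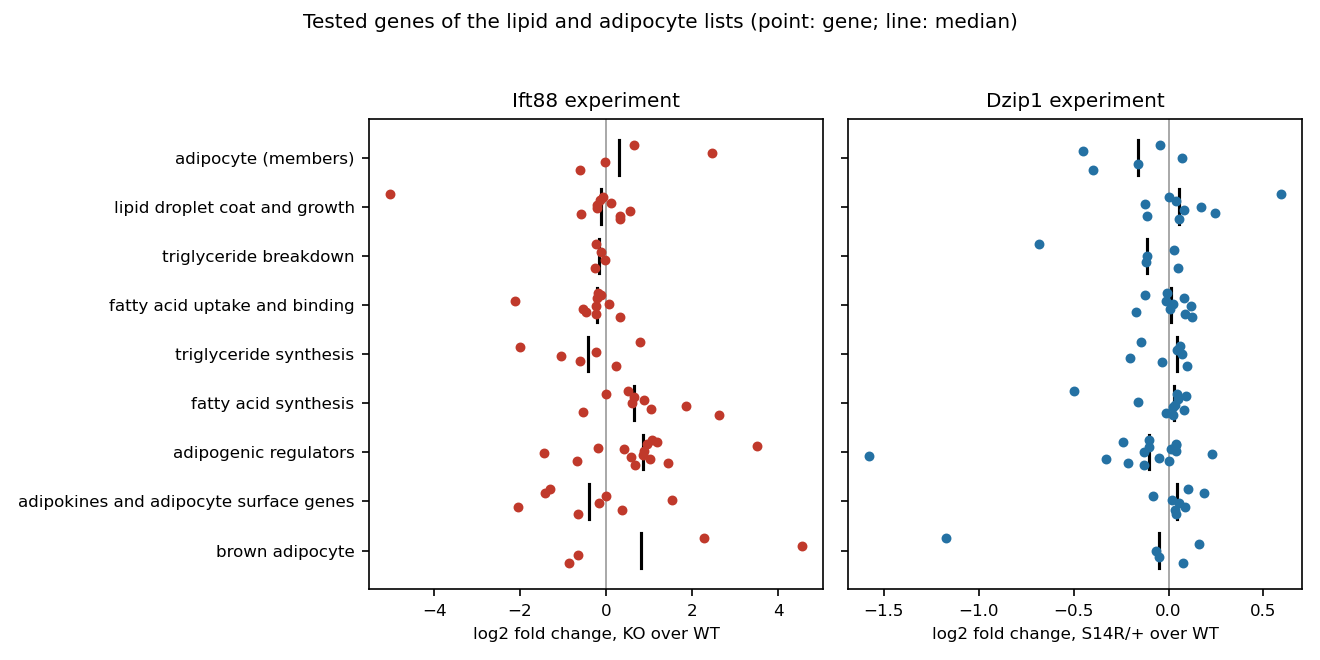
Each point is the log2 fold change, mutant over wild type, of a tested gene in the members' list or 1 of the 8 related lists, and the black line is the list's median. In the Ift88 experiment the fatty acid synthesis median is 0.65 and the adipogenic regulator median 0.87, while the Dzip1 medians of the 8 lists lie between -0.12 and 0.06.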

How the data were processed

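RNA of mouse mitral leaflets was sequenced in 11 libraries. Per the labels' protocols, DNase-treated total RNA went into the SMART-Seq v4 kit. The submitters' processing notes name build GRCm38 and the tools FastQC 0.11.5, HTSeq, cutadapt 1.11, DESeq and DESeq2. Aligner, annotation and strand setting were not given in the sources used here. Deposited tables hold counts per gene as whole numbers, per the file headers and the values, and only these counts were used. Samples were grouped by the genotype label.

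Levels are CPM, counts scaled to a library total of 1 M. Each table was tested alone by the quasi-likelihood F test of edgeR 4.0.16 (R 4.3.3), with TMM scaling, the filter filterByExpr, and a threshold of 0.05 on p-values adjusted over all tested genes by Benjamini-Hochberg. The SE given with an edgeR fold change was derived, as the absolute log2 fold change over the square root of F. It is thus not a separately fitted value. The step was also run on simulated data, whose outcome is not given here, so the power of either design is not stated. Alternatives were DESeq2 1.42.0, other scalings and filters, a threshold of 0.1, each library left out, title prefix (Ift88) and sex by Xist and Y-linked counts (Dzip1). Sex was not fitted in the Ift88 experiment, where only knockout replicate 3 was read as male. Lengths are those of the GENCODE transcript with the longest coding sequence. Total counts limit the precision: 3 counts correspond to between 0.0321 and 0.128 CPM.

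The members and lists were chosen with earlier results of these data known. All 9 members are named. From each list, genes past the threshold or else up to 3 tested genes with the smallest p were eligible to be named. Genes named for a count of 0, or as markers (Cd36, Gpihbp1, Meox2, Car4, Timp4, Fabp3, Fabp5, Cidea, Plin2, Plin3, G0s2, Ucp1, Lep, Retn, Orm1), were chosen after their values were seen. A ranking of genes by likeness to the members' profile is not reported here.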

Additional observations from a re-analysis of the deposited data

How the results depend on the processing

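No member passed the threshold under any alternative. In the Ift88 experiment the number of called genes was 0 in the main test, 381 with DESeq2, and from 0 to 187 with each library left out, the highest without wild-type replicate 1. In the Dzip1 experiment it was from 0 to 10 with each library left out (without wild-type replicate 2 the highest) and 0 under the other alternatives. The log2 fold change of Fabp4 in the Ift88 experiment ranged from -1.51 to 2.41 with each library left out and turned positive without wild-type replicate 1. That of Lpl ranged from -1.01 to 4.99, being 4.99 without wild-type replicate 1, 0.18 and 0.21 without knockout replicates 2 and 3, 0.26 with plain library totals and 0.89 with the title prefix as a covariate. Pparg in the Dzip1 experiment ranged from -0.15 to 0.11, being 0.11 without S14R/+ replicate 1 and 0.027 without wild-type replicate 3. The cause was not tested. The other 44 of 50 fold changes in the Ift88 experiment and 62 of 64 in the Dzip1 experiment kept their direction and stayed short of the threshold. Plain totals moved the median of all Ift88 genes from -0.01 to 0.10. Mean levels moved by less than 1 SD with TMM-scaled CPM, in 11 of 11 and 16 of 16 values. No paired analysis was possible because the labels give the groups no shared replicate numbers. With 2 wild-type libraries and few or 0 counts for Adipoq, Cidec, Plin1, Cfd and Cebpa in the Ift88 experiment, differences in these genes were not detectable at this depth.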
